A study of Mus musculus with 6 samples.

Results

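The 6 genes described here are those protein genes of mitochondrial DNA that encode subunits of respiratory complexes III, IV and V: mt-Cytb (cytochrome b, complex III), mt-Co1, mt-Co2 and mt-Co3 (cytochrome c oxidase, complex IV), and mt-Atp6 and mt-Atp8 (ATP synthase, complex V). They were chosen by name, and all 6 had a row among the 17193 Ensembl genes measured in every library. RNA sequencing compared astrocytes of 3-month-old wild-type C57BL/6 mice that had been given quinpirole, an agonist of the dopamine D2 receptor, with astrocytes of mock-treated mice of the same strain, age and genotype, with 3 libraries per group. The cells were taken from dissociated brain with microbeads against the astrocyte surface antigen ACSA-2, and mRNA was selected by its poly(A) tail. Values are FPKM, fragment counts scaled to transcript length and to library size. The labels do not say which mouse or mice each library came from, so p-values measure the spread between these libraries, which may be partly technical. The question was which transcripts of astrocytes change after activation of this receptor.

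Mitochondrial DNA is a small circular genome present in many copies in each cell. It is transcribed into long precursors that are cut at the transfer RNA genes into separate messenger RNAs, most of which receive a short poly(A) tail. Its protein genes encode only core subunits of the respiratory chain. The remaining subunits of complexes III to V are encoded in the nucleus and imported, so that each complex is built from the products of both genomes. Cytochrome b carries electrons within complex III, the cytochrome c oxidase subunits form the catalytic core of complex IV that reduces oxygen, and the ATP synthase subunits belong to the membrane part of complex V through which protons flow.

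On GRCm38, the build that the labels name, GENCODE release M21 places all 6 genes on the plus strand of chromosome M, each as 1 exon with no intron. mt-Co1 lies at chrM:5328-6872, mt-Co2 at chrM:7013-7696, mt-Atp8 at chrM:7766-7969, mt-Atp6 at chrM:7927-8607, mt-Co3 at chrM:8607-9390 and mt-Cytb at chrM:14145-15288. mt-Atp8 and mt-Atp6 are carried by the same messenger RNA, and the last 43 bases of mt-Atp8 are also the first 43 bases of mt-Atp6. This overlap is printed because a fragment within it could be counted for either gene. Capitals mark the start codon of mt-Atp6, which lies inside the reading frame of mt-Atp8 at chrM:7927-7969.
mt-Atp8 and mt-Atp6 overlap: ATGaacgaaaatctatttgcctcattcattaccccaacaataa

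The gene ends show how these messages depend on the poly(A) tail by which the libraries were selected. mt-Co1, mt-Co2, mt-Atp8 and mt-Atp6 end in a complete TAA stop codon, whereas mt-Co3 and mt-Cytb hold only the first T of it, and the tail supplies the rest. The last 30 bases of 3 of the genes are shown with the encoded part of the stop codon in capitals.
mt-Co1 (chrM:6843-6872): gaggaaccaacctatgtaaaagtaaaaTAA
mt-Co3 (chrM:9361-9390): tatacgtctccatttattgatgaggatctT
mt-Cytb (chrM:15259-15288): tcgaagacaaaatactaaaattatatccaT

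Copies of mitochondrial DNA inside the nuclear genome bear on how fragments of these genes can be counted. Every member transcript was compared, in words of 50 bases on either strand, with the transcripts of all other annotated genes. Copies sharing fewer than 100 bases were left out, so shorter or more diverged copies would be missed. mt-Co2 was shared over 100% of its length, mt-Co3 over 99.9%, mt-Atp6 over 99.6% and mt-Co1 over 74.9%, while mt-Cytb and mt-Atp8 were shared over 0%. A run of annotated pseudogenes on the minus strand of chromosome 1 holds exact copies: Gm28661 of mt-Co2 (chr1:24614885-24615565, 681 bases), Gm10925 of mt-Atp6 (chr1:24613974-24614651, 678 bases), Gm28437 of mt-Co3 (chr1:24613189-24613971, 783 bases) and Gm29216 (chr1:24615706-24616197) of the last 479 bases of mt-Co1. In these alignments 0 bases differed. A second pair of pseudogenes on chromosome 2, Gm13340 of mt-Co1 and Gm13341 of mt-Co2, was 97.6% identical to each. The stretch between Gm10925 and Gm28661, where a copy of mt-Atp8 would lie, has no annotated transcript and was not compared. The first 60 bases of mt-Co2 are printed beside both of its copies, because they show that one copy can be told apart and the other cannot. Capitals mark the positions, counted from the first base of mt-Co2, at which Gm13341 differs (C25T and G57A).
mt-Co2 (chrM:7013-7072): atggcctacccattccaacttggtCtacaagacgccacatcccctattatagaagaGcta
Gm28661 (chr1:24615506-24615565, minus strand): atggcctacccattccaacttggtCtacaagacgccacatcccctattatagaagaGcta
Gm13341 (chr2:22587903-22587962, minus strand): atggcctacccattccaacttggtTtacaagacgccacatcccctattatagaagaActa
How the authors counted fragments that match both a mitochondrial gene and such a copy is not given in the sources used here, and no values of these pseudogenes were analysed here.

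All genes together had 401769 to 413730 FPKM in a mock library and 425244 to 437164 FPKM in a quinpirole library. The files hold no counts. The steps between the lowest FPKM values correspond to roughly 22500000 to 27650000 fragments per library. All 10 astrocyte markers had rows, with summed levels of 1490 to 1650 FPKM in the mock libraries and 1480 to 1510 FPKM in the quinpirole libraries. Of these, Atp1b2, which encodes the ACSA-2 antigen, and the glutamate transporter gene Slc1a2 fell. Markers of other cells were also present. The 5 microglia markers summed to 314 to 332 FPKM in the mock and 332 to 365 FPKM in the quinpirole libraries, most of it C1qa. Of them, 0 passed the test described below (limma). An unadjusted p under 0.05 was found for 3 of them, beside 3839 of all 12255 genes tested. These 3 went in both directions: C1qa was higher (mean 206 and 238 FPKM), and Csf1r (56.2 and 50.2) and Cx3cr1 (36.1 and 33.2) were lower. The 6 markers of the oligodendrocyte lineage summed to 266 to 271 and 286 to 306 FPKM, nearly all of it Olig1, which rose. The 6 neuronal markers summed to 54.2 to 57.3 and 63.1 to 68.2 FPKM, nearly all of it Stmn2, which rose, while the other 5, among them Rbfox3 and Snap25, were below 1 FPKM. The 4 endothelial markers reached at most 2.29 FPKM together. The 3 mural markers summed to 2550 to 2710 and 2730 to 2900 FPKM, nearly all of it Acta2, while Pdgfrb fell and the pericyte marker Rgs5 was below 1 FPKM. The 3 ependymal markers summed to 121 to 132 and 119 to 127 FPKM, nearly all of it Foxj1. The 2 markers of red blood cells were not analysed here. After the correction for transcript length and GC content described below, Pdgfrb still passed the test, whereas Atp1b2, Slc1a2, Olig1 and Stmn2 did not. The part of other cells in the results below was not tested. In such bulk samples, a change in the share of cells of one type and a change in RNA per cell cannot be told apart.

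The 6 genes were among the most abundant transcripts of the preparation, and their order was the same in every library. By FPKM, a level per transcript length, mt-Co1 came first, followed by mt-Cytb, mt-Co2, mt-Co3, mt-Atp8 and mt-Atp6 in 6 of 6 libraries. Among all 17193 genes mt-Co1 ranked between 3 and 4, mt-Cytb between 12 and 15, mt-Co2 between 18 and 22, mt-Co3 between 25 and 29, mt-Atp8 between 39 and 58 and mt-Atp6 between 204 and 287. mt-Co1 exceeded mt-Cytb by 1.88 to 1.97 times in the 6 libraries. mt-Cytb exceeded mt-Co2 by 1.09 to 1.47 times. mt-Atp8 exceeded mt-Atp6 by 2.52 to 3.15 times, although both belong to 1 messenger RNA. mt-Atp8 has 204 bases and mt-Atp6 has 681, and how the authors' program set the FPKM of short transcripts is not given in the sources used here.

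All 6 genes had a higher mean after quinpirole administration, by 1.16 to 1.29 times, and 3 of them rose past an adjusted p of 0.05. Differences were tested with limma on log2(FPKM + 1) over all 12255 genes with a mean of at least 1 FPKM, and p-values were adjusted over all of these genes. The 3 genes that rose were mt-Cytb, mt-Co1 and mt-Atp6. In this test 5.74% of all genes rose and 10.9% passed in either direction. The median log2 fold change of the 6 genes was 0.27, against 0.015 for all genes. In this test the 6 values lay between the percentiles 92.8 and 99.0 of all log2 fold changes, a standing that some corrections given below lowered. Every quinpirole library lay above every mock library for 5 of the 6, a separation seen in 20.0% of all genes tested.

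**Figure D1:**
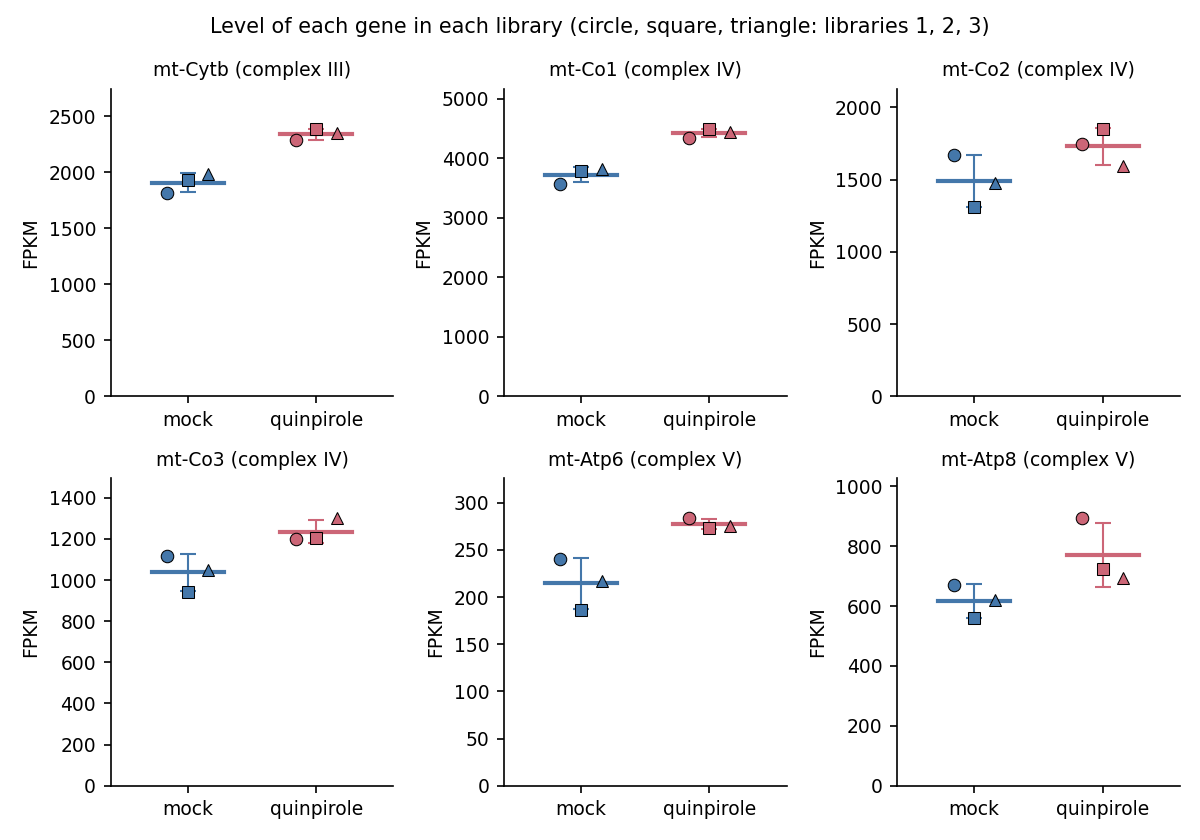
Level of each of the 6 genes (FPKM, y axes from 0) in the 3 mock and 3 quinpirole libraries. Bars and whiskers give the mean and SD, and circle, square and triangle mark libraries 1, 2 and 3 of a group. The labels state no pairing by these numbers. The groups are apart for 5 genes and overlap for mt-Co2.

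For complex III, mt-Cytb was measured at 1817, 1927 and 1980 FPKM in mock libraries 1 to 3 and at 2286, 2385 and 2348 FPKM in quinpirole libraries 1 to 3. Every quinpirole library lay above the highest mock library, by more than the spread within either group. The means were 1908 ± 83.0 and 2339 ± 49.9 FPKM (SD, n = 3 each), a log2 fold change of 0.29 (SE 0.05, 95% interval 0.18 to 0.41, adjusted p = 0.0246, limma). This was the smallest adjusted p of the 6 genes. It is also 1 of the 2 members that shared no sequence with an annotated nuclear copy.

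For complex IV, mt-Co1, which encodes the subunit that holds the oxygen-reducing center, had 3576, 3790 and 3819 FPKM in the mock libraries and 4347, 4492 and 4441 FPKM in the quinpirole libraries. The spread within each group was small and the groups did not overlap. Its log2 fold change was 0.25 (SE 0.05, 95% interval 0.14 to 0.36, adjusted p = 0.0277, limma).

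mt-Co2, whose product receives electrons from cytochrome c, had 1674, 1314 and 1479 FPKM in the mock libraries and 1745, 1850 and 1598 FPKM in the quinpirole libraries. Mock library 1 lay above quinpirole library 3, so the groups overlapped. The log2 fold change of 0.22 (SE 0.09, 95% interval 0.00 to 0.44, adjusted p = 0.156, limma) did not pass. mt-Co3, the third core subunit, had 1119, 943.1 and 1049 FPKM in the mock libraries and 1200, 1206 and 1300 FPKM in the quinpirole libraries. The groups were apart, but by less than the spread within the mock group, and the log2 fold change of 0.25 (SE 0.07, 95% interval 0.09 to 0.41, adjusted p = 0.054, limma) stayed above the threshold.

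For complex V, mt-Atp6, which encodes the subunit that lines the proton path, had 240.1, 186.6 and 217.0 FPKM in the mock libraries and 283.5, 273.3 and 275.2 FPKM in the quinpirole libraries. The quinpirole libraries were nearly level, with a coefficient of variation of 1.95%, and the mock libraries spread over 12.5%. The log2 fold change was 0.38 (SE 0.08, 95% interval 0.18 to 0.57, adjusted p = 0.0379, limma). mt-Atp8, a small subunit of the membrane part, had 671.6, 558.9 and 621.7 FPKM in the mock libraries and 892.9, 723.2 and 694.0 FPKM in the quinpirole libraries. Quinpirole library 1 stood above the other two of its group. The log2 fold change of 0.31 (SE 0.10, 95% interval 0.07 to 0.56, adjusted p = 0.0913, limma) did not pass.

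These calls depended on single libraries and on the correction for transcript length. With mock library 3 left out, mt-Co1 (adjusted p = 0.0317, limma) and mt-Cytb (0.027) still passed. With any other library left out neither did, with adjusted p from 0.0674 to 0.0987 for mt-Co1 and from 0.055 to 0.0931 for mt-Cytb. mt-Atp6 passed in none of the 6 such fits (0.0556 to 0.102). The log2 fold changes of the 6 genes stayed between 0.13 and 0.46 in these fits. Across all genes, the number past the threshold fell from 1339 to 6 without mock library 1, 3 without mock library 2, 11 without quinpirole library 1, 25 without quinpirole library 2 and 210 without quinpirole library 3. After each library was corrected for its trend with transcript length and GC content, the log2 fold changes of the 6 genes were between 0.02 and 0.16. In that fit 0 of the 6 passed. An unadjusted p under 0.05 (limma) was found for 2 of the 6, beside 3051 of all 12255 genes. With the length correction alone mt-Cytb still passed (adjusted p = 0.0385, limma), whereas mt-Co1 (0.0527) and mt-Atp6 (0.171) did not. The median of the 6 genes lay at percentile 96.4 of all log2 fold changes in the test as designed. This became 87.8 with the length correction alone, 71.8 with both corrections and 79.1 with quantile normalization. In the other settings it was 94.8 to 97.6. The GC content of these genes ran from 31.9% for mt-Atp8 to 39.9% for mt-Co1. A true change related to length or GC content would be removed as well.

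**Figure D2:**
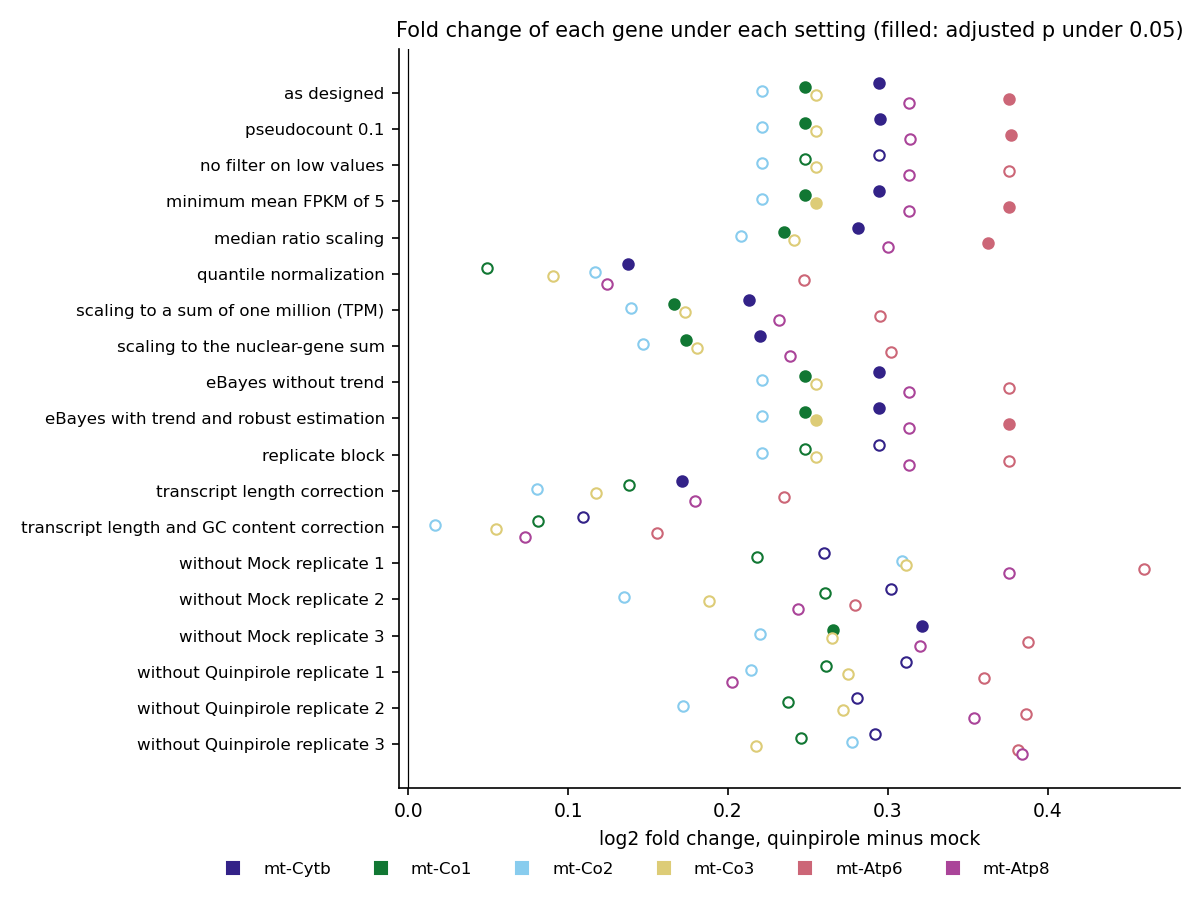
Log2 fold change (quinpirole minus mock, x axis) of the 6 genes under the test as designed and 18 other settings. Filled symbols have an adjusted p under 0.05 in that setting. All values are above 0. The smallest value of mt-Co1 is that with quantile normalization, and those of the other 5 genes are with the correction for length and GC content.

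The values are FPKM, which depend on what else is in the library. As a share of all FPKM, the 6 genes made up 2.26%, 2.17% and 2.22% of mock libraries 1 to 3 and 2.52%, 2.50% and 2.51% of quinpirole libraries 1 to 3, and the groups did not overlap. When every library was scaled to the same FPKM sum, mt-Cytb (log2 fold change 0.21) and mt-Co1 (0.17) still passed, and mt-Atp6 (0.30, adjusted p = 0.0563, limma) did not. With quantile normalization only mt-Cytb passed (0.14), and the value of mt-Co1 shrank to 0.049 (adjusted p = 0.264, limma). That scaling also changed the direction of calls across all genes, of which 52.6% were higher as deposited, 15.1% with a common sum, 18.4% with a common sum of nuclear genes, 36.1% with quantile normalization and 45.6% with median ratios.

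Within the mock group, the 6 genes fell into 2 patterns. mt-Co1 and mt-Cytb were lowest in mock library 1 and highest in mock library 3. This order was not particular to them, as mt-Nd1, mt-Nd2, mt-Nd4l and mt-Nd4 of complex I had it too. mt-Nd5 and mt-Nd6 were also lowest in mock library 1. In contrast, mt-Co2, mt-Atp8, mt-Atp6 and mt-Co3, which follow each other on mitochondrial DNA, were highest in mock library 1 and lowest in mock library 2. On the log2 scale, mock library 2 lay below the mean of the other two by 0.26 for mt-Co2, 0.21 for mt-Atp8, 0.29 for mt-Atp6 and 0.20 for mt-Co3, whereas it lay 0.04 above it for mt-Co1 and 0.02 above it for mt-Cytb. The mock coefficients of variation were 8.54% to 12.5% for these 4 genes, 3.57% for mt-Co1 and 4.35% for mt-Cytb. The next gene along the molecule, mt-Nd3 of complex I, had the same low value in mock library 2 (0.34 below), and the one after it, mt-Nd4l, did not (0.02 below). These 4 genes had no common order among the quinpirole libraries, where mt-Co2 was highest in library 2, mt-Atp8 and mt-Atp6 in library 1 and mt-Co3 in library 3.

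With the estimated depth, and if FPKM was scaled to full annotated length, mt-Atp6 rested on about 3514 fragments in its lowest library. Counting alone would then give a coefficient of variation of 1.69%. The same reckoning gives 3153 fragments (1.78%) for mt-Atp8. If the authors' program used another length for short transcripts, these numbers would differ, so they are not lower limits. The shared sequence followed these patterns in part. mt-Co2, mt-Atp6, mt-Co3 and mt-Nd3, with the low value in mock library 2, were each shared over at least 98.3% of their length, but so was mt-Nd4l at 99.0%, which lacked it. mt-Atp8, which had the low value, was shared over 0% by the transcripts compared. The stretch of chromosome 1 where a copy of mt-Atp8 would lie was not among them, so its true share is not known. The part of the nuclear copies in this spread was not tested.

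**Figure D3:**
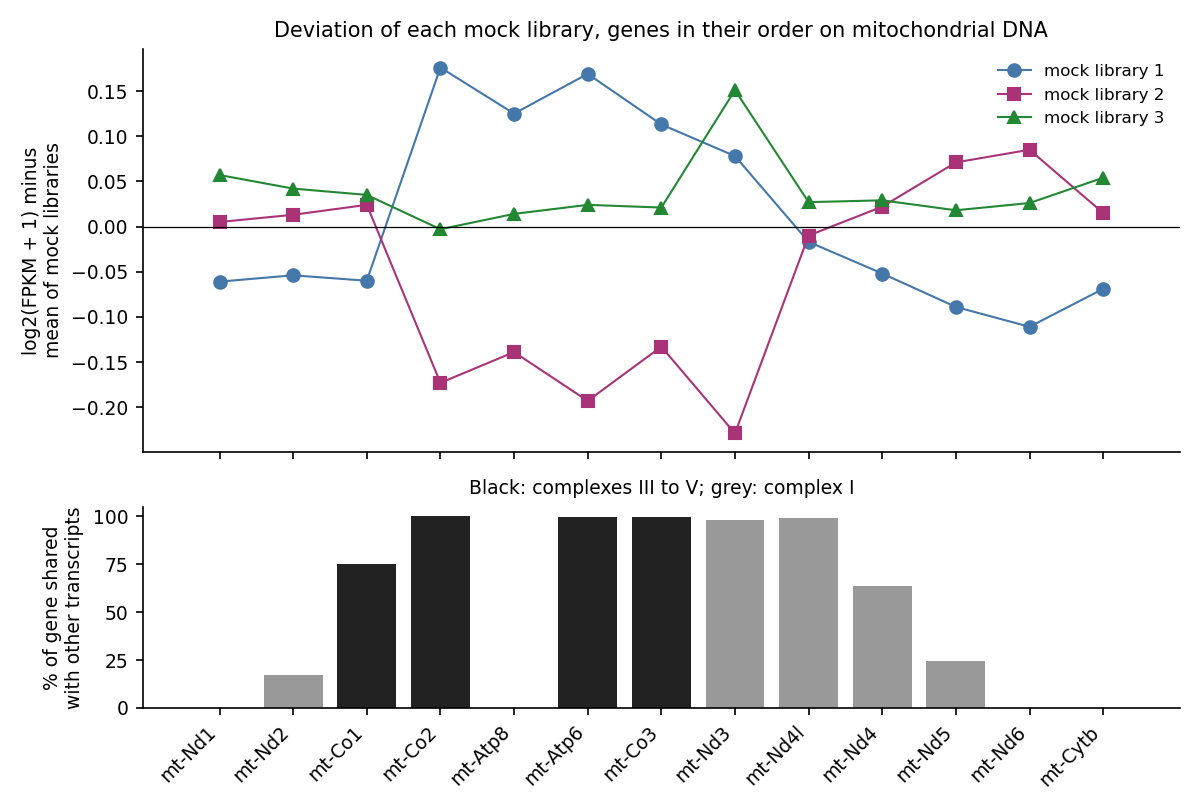
Upper panel, deviation of each mock library from the mock mean (log2(FPKM + 1), y axis) for the 13 protein genes of mitochondrial DNA in their order on the molecule; lines join genes of 1 library. Lower panel, percent of each gene that is shared with transcripts of other genes. The stretch of chromosome 1 where a copy of mt-Atp8 would lie was not compared. Mock library 2 lies low from mt-Co2 to mt-Nd3. Mock library 1 lies below the mean for mt-Co1, mt-Cytb and all complex I genes except mt-Nd3.

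Ratios between members within a library do not change when the library is multiplied by a factor, although quantile normalization can move them. For the 15 pairs, the log2 ratio was compared between the groups with an exact permutation test (two-sided). With 3 libraries in each group, the smallest p this exact test can give is 0.1. The groups were apart for 2 pairs, with an exact p of 0.1 each and 0.75 after adjustment over the 15 pairs. The log2 ratio of mt-Co1 to mt-Cytb was 0.97 ± 0.016 in the mock and 0.92 ± 0.0068 in the quinpirole libraries (SD, n = 3), lower by 0.05, and that of mt-Co2 to mt-Atp6 was 2.79 ± 0.024 and 2.64 ± 0.11. The ratio of mt-Atp8 to mt-Atp6, the 2 reading frames of 1 message, was 1.52 ± 0.050 and 1.46 ± 0.17, with an exact permutation p of 0.5. This pair spread over 0.32 among the libraries, and that of mt-Co1 to mt-Cytb over 0.063.

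The other 7 protein genes of mitochondrial DNA, all of complex I, had a median log2 fold change of 0.27, as did the 6 genes described here. Of the 7, 6 rose, beside 5.74% of all genes, and mt-Nd3 did not pass (0.36, adjusted p = 0.0573, limma). mt-Nd1 had the largest change that passed (0.38, adjusted p = 0.0225, limma), from 1255 ± 51.2 to 1635 ± 38.1 FPKM. mt-Nd2 (0.31), mt-Nd6 (0.27), mt-Nd4 (0.27), mt-Nd4l (0.24) and mt-Nd5 (0.24) also rose. With quantile normalization 2 of the 7 rose, with a common FPKM sum 3, with the length correction 3, and with the correction for length and GC content 1, at a median of 0.07. Among all 12255 genes, 283, 219, 269 and 174 rose in these fits, in the same order. mt-Nd6, which lies on the opposite strand, had a value within the range of the genes on the plus strand. Whether the authors' counting used strand is not given in the sources used here, so transcripts of either strand over a gene cannot be told apart. The 2 ribosomal RNA genes of mitochondrial DNA were not analysed here.

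**Figure D4:**
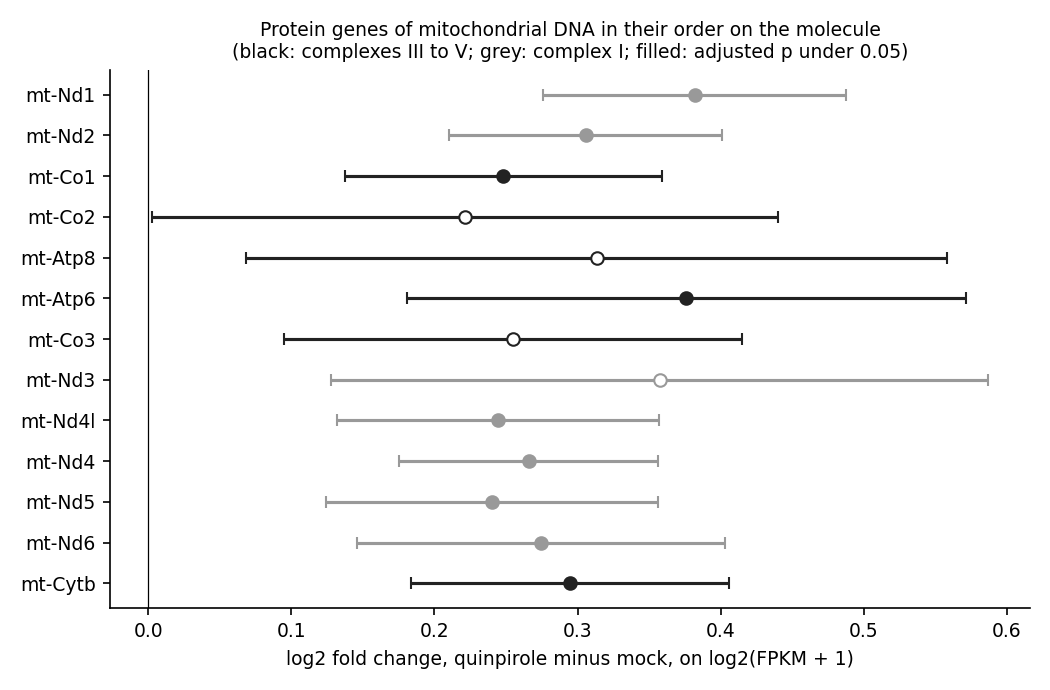
Log2 fold change (quinpirole minus mock, x axis) with its 95% interval from limma for the 13 protein genes of mitochondrial DNA. Black marks the genes of complexes III to V, grey those of complex I, and filled symbols an adjusted p under 0.05. All estimates lie between 0.22 and 0.38, with the widest intervals from mt-Co2 to mt-Nd3.

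The nuclear partners of these subunits were listed by complex, and their counts stand beside 5.74% of all genes that rose. Of the 10 genes of complex III and cytochrome c, 4 rose, 0 fell and 6 did not pass, with a median log2 fold change of 0.16. Cycs, cytochrome c itself, rose by 0.35 (adjusted p = 0.0215, limma), Uqcrc2, a core subunit, by 0.19 and Cyc1, cytochrome c1, by 0.18. Of the 15 tested genes of complex IV, 4 rose, 0 fell and 11 did not pass, with a median of 0.17. Among them Ndufa4 (0.35), Cox7c (0.33) and Cox6c (0.32), which encode small accessory subunits, had the smallest p. Of the 18 genes of complex V, 9 rose, 0 fell and 9 did not pass, with a median of 0.20. The gamma subunit gene Atp5c1 (0.27), Usmg5 (0.29) and the c subunit gene Atp5g3 (0.26) had the smallest p of this list. All 3 medians stayed above 0 with each scaling and correction tried, and were lowest at 0.03 for complex III and 0.06 for complex IV (length correction) and at 0.10 for complex V (quantile normalization). The counts were smaller in some of these fits. With quantile normalization, 1, 2 and 2 genes of complexes III, IV and V rose, with the length correction 1, 3 and 3, and with the correction for length and GC content 1, 2 and 1. Among all 12255 genes, 283 rose with quantile normalization, 269 with the length correction and 174 with the correction for length and GC content.

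Genes that help to build these complexes, or that act on mitochondrial DNA, were listed separately. Of 26 tested assembly factors of complexes III to V, 1 rose, Uqcc2 (0.30, adjusted p = 0.0354, limma), which is needed for synthesis and assembly of cytochrome b, and 25 did not pass. The next in order of p, the copper chaperone gene Cox17 (0.20) and Coa6 (0.17), did not pass. Of 35 tested genes for transcription, processing and upkeep of mitochondrial DNA, 2 rose and 33 did not pass, with a median of 0.05, which turned to -0.02 when the libraries were scaled to a common sum. Tfb1m, a methyltransferase of mitochondrial ribosomal RNA, rose by 0.48 (adjusted p = 0.0322, limma), from 2.58 ± 0.416 to 3.97 ± 0.288 FPKM, and Mtpap, the mitochondrial poly(A) polymerase, by 0.21 (adjusted p = 0.0485, limma). Polrmt, the mitochondrial RNA polymerase, was lower by a log2 fold change of -0.20, which did not pass (adjusted p = 0.0569, limma). The counts of 1 of 26 and 2 of 35 stand beside 5.74% of all genes that rose, and Uqcc2, Tfb1m and Mtpap did not pass after the correction for length and GC content. The lists differ in length and abundance of their genes, and the difference between them was not tested.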

How the data were processed

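Astrocyte mRNA was sequenced in paired-end reads on an Illumina HiSeq instrument. The authors removed adaptors and poor reads, mapped the rest with TopHat2 to GRCm38 (named in the submitters' processing notes), keeping reads with at most 1 mismatch, and deposited 1 FPKM value per Ensembl gene and library. The program behind the FPKM values, its annotation and the TopHat2 version are not given in the sources used here. Groups and replicate numbers came from the sample titles.

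Symbols were matched to 17090 of 17193 identifiers. The 12255 genes whose FPKM averaged 1 or more were compared on log2(FPKM + 1), which slightly understates changes, with limma 3.58.1 in R 4.3.3. Its lmFit and eBayes (trend) gave two-sided p-values, adjusted by Benjamini-Hochberg, with 0.05 as threshold. Positions, lengths, GC content and transcript sequences came from GENCODE M21; copies sharing under 100 bases were left out. Corrections for length and GC content subtracted a loess fit (span 0.3) from each library's deviations. Depth was estimated from single-transcript genes, on the assumption that low values rise in steps of 1 fragment, and 60.3% to 72.2% of such values lay within 0.1 of a whole number. Python 3.11.15 was used for tables and figures. Scripts were tested on simulated data.

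The members, lists and tests were chosen with earlier results of these data known. Named from each nuclear list were the 3 genes with the smallest p, and the 5 genes most correlated with the mean of the members. Markers past the threshold were named after their values were seen, as were Rbfox3, Snap25, Acta2, Rgs5 and Foxj1. One marker is not reported here.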

Additional observations from a re-analysis of the deposited data

How the results depend on the processing

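All 6 log2 fold changes stayed above 0 under the 18 other settings. Of their 108 values, 74 kept their side of the threshold, 32 no longer passed and 2 newly passed. All 32 belonged to mt-Co1, mt-Cytb or mt-Atp6, the only genes that passed as designed. The 74 include values of mt-Co2, mt-Co3 and mt-Atp8 that did not pass in either fit, so they do not measure how stable the 3 calls were. The 2 new ones were both mt-Co3 (0.25), with a minimum mean FPKM of 5 (adjusted p = 0.0469, limma) and with robust estimation (0.0432). The 1339 genes past the threshold became 633 when no genes were filtered out, 783 after quantile normalization, 714 for eBayes without trend, 519 with the length correction and 342 with the length and GC content correction, and the 3 members past it became 0, 1, 2, 1 and 0. mt-Co1 was no longer past it with no filter (0.25), quantile normalization (0.049), the length correction (0.14) and both corrections (0.081). mt-Cytb was no longer past it with no filter (0.29) and both corrections (0.11). mt-Atp6 was no longer past it with no filter (0.38), quantile normalization (0.25), a common FPKM sum (0.30), a common sum of nuclear genes (0.30), eBayes without trend (0.38), the length correction (0.24) and both corrections (0.16). The cause was not tested. Leaving out single libraries gave 3 to 1215 genes and 0 to 2 members past the threshold, with log2 fold changes of 0.22 to 0.27 for mt-Co1, 0.13 to 0.31 for mt-Co2, 0.19 to 0.31 for mt-Co3, 0.26 to 0.32 for mt-Cytb, 0.28 to 0.46 for mt-Atp6 and 0.20 to 0.38 for mt-Atp8. The log2 ratio of mt-Atp8 to mt-Atp6 ranged from -0.16 to 0.00, and changed sign (0.0023) without quinpirole library 3.

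With the replicate block, 2 genes and 0 members were past the threshold (limma), while 3308 genes and 5 members had an unadjusted p under 0.05. The log2 fold changes stayed at 0.25 for mt-Co1, 0.29 for mt-Cytb and 0.38 for mt-Atp6, with adjusted p from 0.0802 to 0.205 over the 6 genes. The labels state no pairing by number. Deviations of same-numbered libraries from their group means correlated at 0.026, -0.066 and -0.103 across genes. For libraries of different numbers the correlations ran from -0.097 to 0.155. With 3 libraries per group, such values cannot show whether libraries were paired. The files hold no counts, so depth was known only as an estimate.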

Other observations

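Across the 6 libraries, the nuclear genes whose log2(FPKM + 1) followed the mean of the 6 mitochondrial genes most closely were Wee1 (r = 0.997), Cmbl (0.994), Bex1 (0.994), Cuedc2 (0.993) and Hpf1 (0.993), out of 12242 genes compared, of which 543 (4.44%) had an r over 0.9. These values are given as a description over 6 libraries that include both groups, with no test. All 5 passed the threshold as higher after quinpirole. They were chosen for following a mean that itself was higher in every quinpirole library, so this is no separate result. Their log2 fold changes were 0.22 for Wee1, 0.26 for Cmbl, 0.25 for Bex1, 0.21 for Cuedc2 and 0.38 for Hpf1. Wee1 is a kinase that restrains entry into mitosis. After the group means were subtracted, the closest were Gins1 (0.999), Zfp180 (0.995), Adi1 (0.995), Pcgf6 (0.994) and Inka2 (0.991), and none of these 5 passed. Of the 12242 genes, 145 (1.18%) then had an r over 0.9. Within the mock group, the mean of the 6 genes was highest in library 1 and lowest in library 2. That is the order of mt-Co2, mt-Atp8, mt-Atp6 and mt-Co3, not that of mt-Co1 and mt-Cytb. The deviations of mt-Co1 and mt-Cytb from their group means had an r of 0.98 over the 6 libraries, and those of mt-Co1 and mt-Atp6 an r of -0.73, both without a test.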
